A study of Mus musculus with 8 samples.

Results

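Oxidative phosphorylation subunits are the proteins of the 5 respiratory complexes of the mitochondrial inner membrane, and 32 of their nuclear genes were followed by complex in 8 mouse mammary tumours. The list held 12 genes of complex I, 4 of complex II, 4 of complex III, 6 of complex IV and 5 of complex V, with the electron carrier cytochrome c (Cycs) apart. Each gene was represented by the array probe that carried its symbol and no other, and where several did, by the one with the highest mean over the tumours. By this rule 31 of the 32 genes were measured, among 22180 genes with a probe of their own, and all 31 were among the 16635 genes kept after the dimmest 25% were left out. Cox6c, a small subunit of complex IV, was read only by 2 probes that also name a predicted gene, and no value is given for it. Ndufa4 was placed in complex IV, to which its protein is now assigned although its name is that of a complex I subunit.

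The tumours were primary mammary tumours of transgenic FVB mice, 4 labelled NeuNT and 4 labelled NeuNT/H1074R, with 1 array for each. NeuNT names an activated form of Neu, the rodent ErbB2 receptor, and both groups carry it. The second group also carries mutant p110α, a phosphoinositide 3-kinase catalytic subunit, and the series title spells the mutation H1047R. The animals had no treatment. The sources used here do not give the promoter of each transgene, the ages of the animals, or whether each tumour came from a separate mouse, and the p-values below measure only the spread between these samples, which may be technical. Replicates are numbered 1 to 4 in each group in order of deposit, and a number shared by the groups pairs nothing.

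Electrons from NADH enter the respiratory chain at complex I, and those from succinate at complex II, which is also an enzyme of the tricarboxylic acid cycle. Ubiquinone carries them to complex III and cytochrome c on to complex IV, where oxygen is reduced. Complexes I, III and IV pump protons across the inner membrane, and complex V, the ATP synthase, uses the gradient to make ATP. A few core subunits are encoded in mitochondrial DNA, but most genes of the chain are nuclear and are regulated by factors such as NRF1, ETS-family factors, YY1 and the PGC-1 coactivators. In mammary epithelium and its tumours, mitochondria supply ATP as well as precursors for growth.

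The arrays are described on the log2 scale of the deposited values, where a difference of 1 is a doubling of signal. Array medians over the tested genes lay between 6.36 and 6.50. Of 10 luminal epithelial markers, Epcam, Krt8 and Krt18 were far above the dim limit in every tumour. Epcam lay between 10.18 and 10.99, Krt8 between 9.78 and 10.89 and Krt18 between 10.36 and 11.36. Over all 10, differences between NeuNT/H1074R and NeuNT ran from -1.22 to 1.35, so the list was not uniform. NeuNT/H1074R replicates 1 and 3 stood apart in skeletal muscle genes, whose mean level over 19 genes was 6.74 and 6.57 there against 4.90 to 5.19 in the other 6 tumours. All 18 tested muscle genes were higher in NeuNT/H1074R by group mean. For 6 of them the groups did not overlap, beside 1.59% of all tested genes. In bulk tumour RNA, fewer cells of a type and less RNA per cell cannot be told apart.

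Most subunit genes varied little between tumours. The median SD of a subunit gene over the 8 tumours was 0.18, against 0.25 for all tested genes. The steadiest were Atp5b, the catalytic β subunit of the ATP synthase, with an SD of 0.047, Atp5a1, the α subunit, with 0.071, and Uqcrc2, a core protein of complex III, with 0.078. The widest were Cyc1 with 0.37, Ndufb3 with 0.36, Atp5o with 0.34 and Sdhb with 0.34. The tumours also differed in how many of the 31 genes lay above their own mean. That number was 19, 8, 18 and 17 in NeuNT replicates 1 to 4 and 7, 9, 20 and 17 in NeuNT/H1074R replicates 1 to 4. The low tumours, NeuNT replicate 2 and NeuNT/H1074R replicates 1 and 2, thus came from both genotypes, and among all tested genes the share above the mean stayed between 45.6% and 51.4%. NeuNT replicate 3 held the highest value of the 8 for 11 subunit genes and the lowest for 6.

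**Figure D1:**
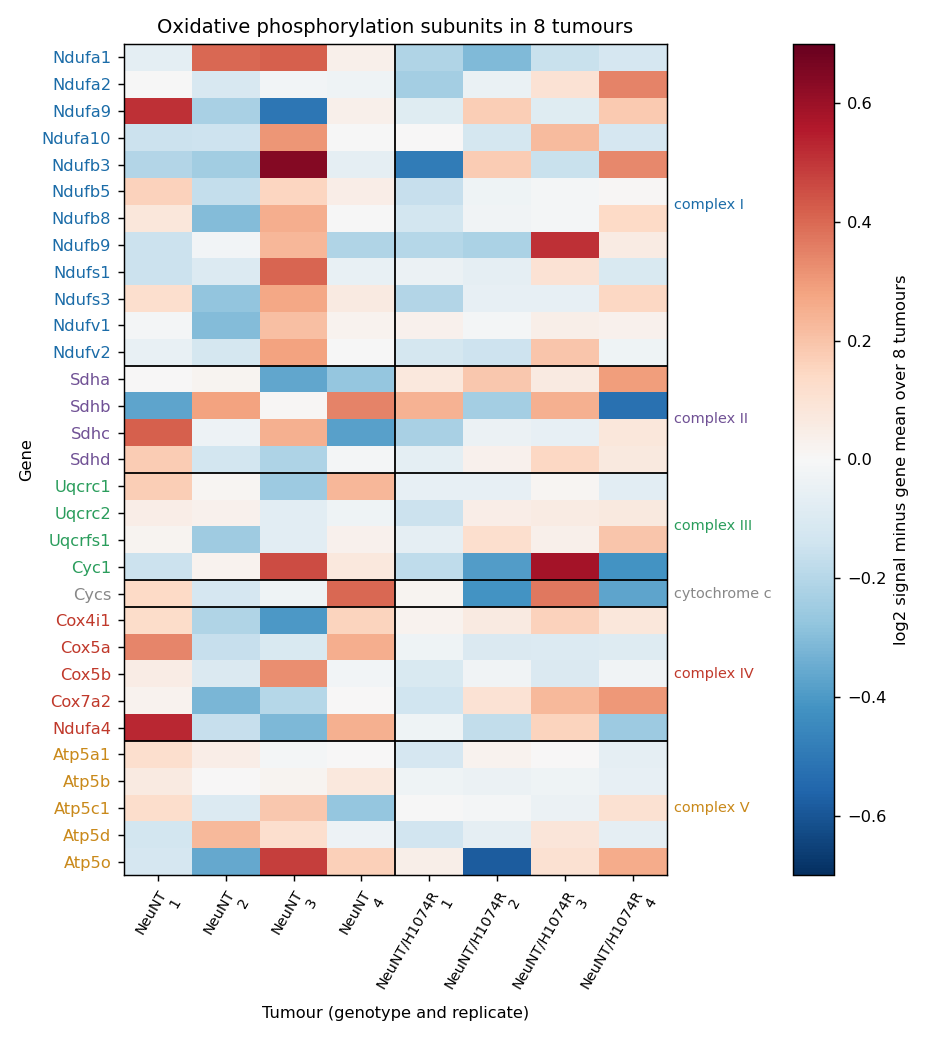
Log2 signal minus the gene's own mean over 8 tumours (colour scale), for the 31 measured subunit genes (rows, grouped by complex) in each tumour (columns, NeuNT to the left of the line and NeuNT/H1074R to the right). Complex I genes are mostly blue in NeuNT replicate 2 and NeuNT/H1074R replicate 1 and mostly red in NeuNT replicate 3, while the genes of complexes II to IV follow no single tumour order.

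No subunit gene separated the genotypes after adjustment. In limma's fit with Benjamini-Hochberg adjustment, 0 of 31 subunit genes and 0 of 16635 tested genes (0%) passed 0.05, and the smallest adjusted p of a subunit gene was 0.978. At an unadjusted p under 0.05, limma counted 1 subunit gene higher and 1 lower in NeuNT/H1074R, beside 351 (2.11%) and 284 (1.71%) of all tested genes. The 4 values of one genotype lay wholly above or below those of the other for 1 higher and 2 lower subunit genes, beside 1.59% and 1.1% of all genes. In all, 11 subunit genes were higher and 20 lower in NeuNT/H1074R, and the median difference was -0.065, beside -0.0027 over all tested genes. Of all tested genes 49.5% were higher in NeuNT/H1074R as deposited and 59.6% with each array centred on its median. Without NeuNT replicate 3 the split was 15 higher and 16 lower, and it was 13 and 18 after quantile normalization and with centred arrays. Without the 2 tumours high in muscle genes it was 12 higher and 19 lower.

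**Figure D2:**
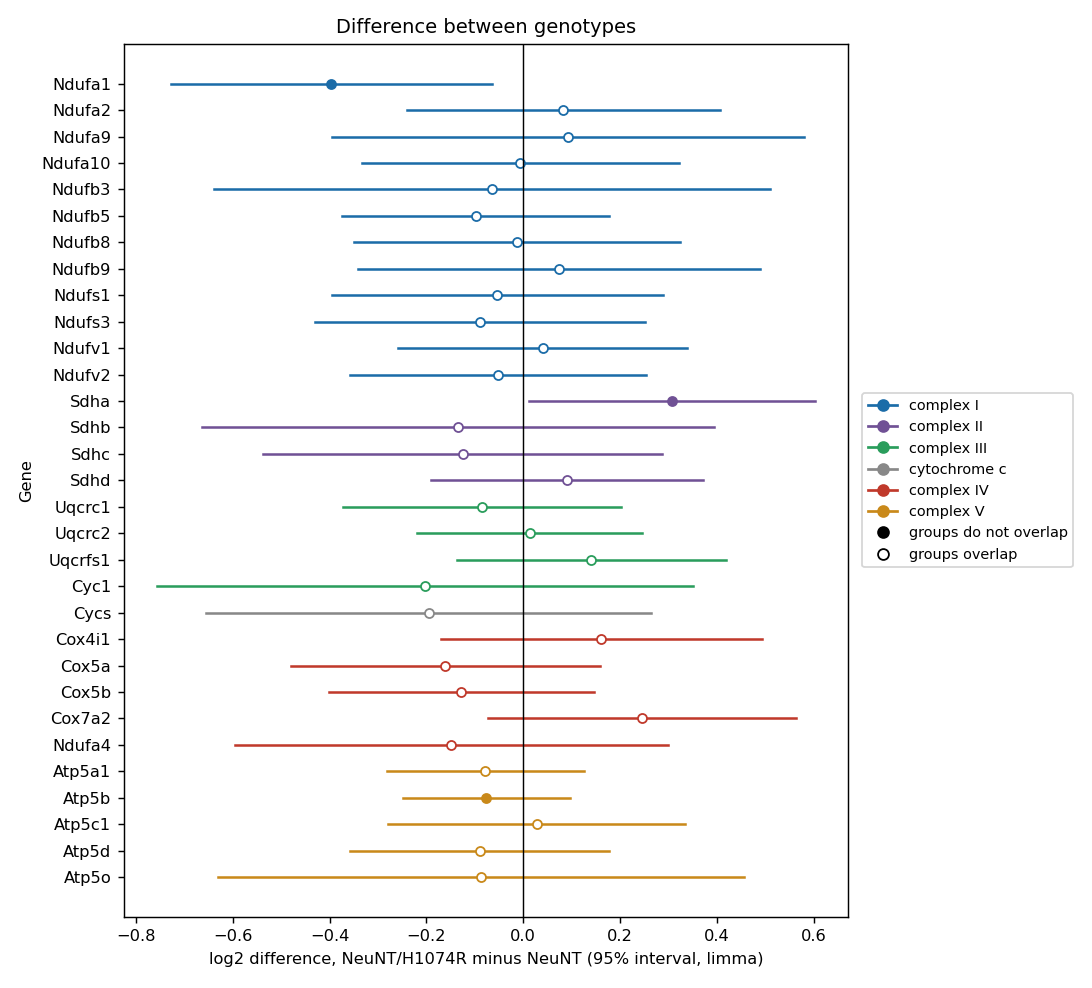
Log2 difference between NeuNT/H1074R and NeuNT (x axis) for each of 31 subunit genes (y axis), with limma's 95% interval as the line, coloured by complex. Filled points mark the 3 genes whose 4 and 4 tumours do not overlap, Ndufa1, Sdha and Atp5b, and the intervals of Ndufa1 and Sdha alone do not cross 0.

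Among the 12 genes of complex I, 4 were higher and 8 lower in NeuNT/H1074R. Ndufa1, a small accessory subunit in the membrane arm encoded on the X chromosome, read 8.28, 8.75, 8.76 and 8.38 in NeuNT replicates 1 to 4 and 8.13, 8.04, 8.19 and 8.22 in NeuNT/H1074R replicates 1 to 4. Every NeuNT tumour lay above every NeuNT/H1074R tumour, and the spread was mostly within NeuNT, where replicates 2 and 3 were highest. The means were 8.54 ± 0.25 (SD, n = 4) against 8.15 ± 0.083 (SD, n = 4), a difference of -0.40 ± 0.15 (SE) with a 95% interval from -0.73 to -0.065 and an adjusted p of 0.978 in limma. Ndufs3, a core subunit of the arm that carries electrons from NADH towards ubiquinone, read 6.10, 5.71, 6.25 and 6.04 in NeuNT replicates 1 to 4 and 5.77, 5.92, 5.93 and 6.12 in NeuNT/H1074R replicates 1 to 4. Its groups overlapped, with a difference of -0.089 ± 0.15 (SE), and its lowest tumours were NeuNT replicate 2 and NeuNT/H1074R replicate 1. The other 10 genes differed between the genotypes by -0.098 for Ndufb5 to 0.093 for Ndufa9, a subunit near the junction of the arms, and each of these 10 differences was smaller than its standard error. They include the NADH-binding Ndufv1, the iron-sulfur subunits Ndufs1 and Ndufv2, and the accessory subunits Ndufa2, Ndufa10, Ndufb3, Ndufb8 and Ndufb9.

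The 4 genes of complex II divided evenly, 2 higher and 2 lower in NeuNT/H1074R. Sdha, the flavoprotein that oxidizes succinate, read 9.22, 9.23, 8.85 and 8.95 in NeuNT replicates 1 to 4 and 9.29, 9.40, 9.28 and 9.51 in NeuNT/H1074R replicates 1 to 4. All 4 NeuNT/H1074R tumours lay above all 4 NeuNT tumours, narrowly, since the highest NeuNT value was 9.23 and the lowest NeuNT/H1074R value 9.28. The means were 9.06 ± 0.19 (SD, n = 4) against 9.37 ± 0.11 (SD, n = 4), a difference of 0.31 ± 0.13 (SE) with a 95% interval from 0.012 to 0.60 and an adjusted p of 0.978 in limma.

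Sdhc, one of the membrane anchors that bind ubiquinone, read 9.32, 8.87, 9.16 and 8.53 in NeuNT replicates 1 to 4 and 8.68, 8.86, 8.85 and 8.98 in NeuNT/H1074R replicates 1 to 4. The NeuNT tumours covered the whole range and the NeuNT/H1074R tumours sat inside it, a difference of -0.13 ± 0.18 (SE). Sdhb, the iron-sulfur subunit between Sdha and the anchors, read 7.18, 7.83, 7.55 and 7.90 in NeuNT replicates 1 to 4 and 7.79, 7.31, 7.80 and 7.02 in NeuNT/H1074R replicates 1 to 4, and was chosen for description after its values were seen. It ran against Sdhc, with its highest values in NeuNT replicates 2 and 4 and NeuNT/H1074R replicates 1 and 3 and its lowest in NeuNT replicate 1 and NeuNT/H1074R replicates 2 and 4. Sdhd, the other anchor, differed by 0.090 ± 0.12 (SE).

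In complex III, 2 genes were higher and 2 lower in NeuNT/H1074R. Uqcrfs1, the Rieske iron-sulfur protein that passes electrons to cytochrome c1, read 6.91, 6.63, 6.81 and 6.91 in NeuNT replicates 1 to 4 and 6.82, 7.00, 6.92 and 7.08 in NeuNT/H1074R replicates 1 to 4. The groups overlapped, and NeuNT replicate 2 was lowest, for a difference of 0.14 ± 0.12 (SE). Cyc1, cytochrome c1 itself, was described after its values were seen and read 8.03, 8.21, 8.64 and 8.26 in NeuNT replicates 1 to 4 and 8.01, 7.79, 8.76 and 7.76 in NeuNT/H1074R replicates 1 to 4. Its highest tumours were NeuNT replicate 3 and NeuNT/H1074R replicate 3, 1 from each genotype, and the difference was -0.20 ± 0.24 (SE). The core proteins Uqcrc1 and Uqcrc2 differed by -0.085 ± 0.13 (SE) and 0.013 ± 0.10 (SE).

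Cycs, the soluble cytochrome c between complexes III and IV, read 9.87, 9.61, 9.70 and 10.13 in NeuNT replicates 1 to 4 and 9.75, 9.31, 10.10 and 9.36 in NeuNT/H1074R replicates 1 to 4. NeuNT replicate 4 and NeuNT/H1074R replicate 3 were highest and NeuNT/H1074R replicates 2 and 4 lowest, so the genotypes overlapped, with a difference of -0.20 ± 0.20 (SE). Cytochrome c has processed copies in the mouse genome, and 5 probes carried its symbol alone. The other 4 gave differences from -0.24 to 0.098 and correlated with the probe used at r = 0.72 to 0.94 over the tumours. Of these 4, 2 had the same mean, difference and correlations, so they may not be separate readings.

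Complex IV held 2 genes higher and 3 lower in NeuNT/H1074R. Cox7a2, the broadly expressed form of a subunit that also has a muscle form, read 9.44, 9.10, 9.22 and 9.42 in NeuNT replicates 1 to 4 and 9.28, 9.52, 9.64 and 9.72 in NeuNT/H1074R replicates 1 to 4. NeuNT/H1074R replicates 2 to 4 were the highest tumours and NeuNT replicate 2 the lowest, and the difference was 0.25 ± 0.14 (SE) with an adjusted p of 0.978 in limma. Cox5b, a matrix-side subunit, read 9.40, 9.25, 9.68 and 9.33 in NeuNT replicates 1 to 4 and 9.24, 9.33, 9.25 and 9.32 in NeuNT/H1074R replicates 1 to 4, and NeuNT replicate 3 stood above the others. The difference was -0.13 ± 0.12 (SE), and a second, dimmer probe of Cox5b gave 0.085 and correlated with the first at r = -0.24, so its probes did not give the same order of tumours.

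Ndufa4 read 10.92, 10.23, 10.08 and 10.64 in NeuNT replicates 1 to 4 and 10.36, 10.22, 10.55 and 10.14 in NeuNT/H1074R replicates 1 to 4. NeuNT replicate 1 was highest and NeuNT replicate 3 lowest, so NeuNT spanned the NeuNT/H1074R tumours, with a difference of -0.15 ± 0.20 (SE). Cox4i1, the subunit that binds regulatory nucleotides, was higher by 0.16 ± 0.15 (SE), and Cox5a differed by -0.16 ± 0.14 (SE).

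Of the 5 measured ATP synthase genes, 4 were lower in NeuNT/H1074R, each by less than 0.10. Atp5b read 11.89, 11.83, 11.85 and 11.90 in NeuNT replicates 1 to 4 and 11.80, 11.79, 11.80 and 11.77 in NeuNT/H1074R replicates 1 to 4. The tumours of each genotype were so alike that the groups did not overlap, 11.87 ± 0.032 (SD, n = 4) against 11.79 ± 0.014 (SD, n = 4), yet the difference was -0.076 ± 0.076 (SE), about the size of limma's standard error, which borrows spread from all genes. Atp5c1, the γ subunit that turns inside the catalytic head, read 6.29, 6.08, 6.36 and 5.90 in NeuNT replicates 1 to 4 and 6.17, 6.16, 6.13 and 6.28 in NeuNT/H1074R replicates 1 to 4. The NeuNT/H1074R tumours lay inside the NeuNT range, and the difference was 0.028 ± 0.13 (SE). Atp5a1, Atp5d (the δ subunit of the rotor) and Atp5o (the stalk protein that confers oligomycin sensitivity) differed by -0.078 ± 0.089 (SE), -0.090 ± 0.12 (SE) and -0.088 ± 0.24 (SE). A second probe of Atp5d differed by -0.23.

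Complexes were compared by a mean per tumour of their genes, each gene first set to its own mean over the 8 tumours, and these means carry no test. For complex I the means were 0.0076, -0.13, 0.22 and -0.014 in the NeuNT tumours and -0.15, -0.057, 0.058 and 0.072 in the NeuNT/H1074R tumours. Complex V read 0.010, -0.036, 0.16 and -0.012 in the NeuNT tumours and -0.049, -0.13, 0.025 and 0.036 in the NeuNT/H1074R tumours. In both complexes NeuNT replicate 3 was highest, and their means correlated at r = 0.84 over the 8 tumours. Genes were not scaled to equal spread, so the widest weigh most in a mean. In complex V that gene was Atp5o, with an SD of 0.34 against 0.047 to 0.145 for the others. The complex V mean thus follows Atp5o more than the complex as a whole. Complex II read 0.058, 0.034, -0.081 and -0.080 in the NeuNT tumours and 0.0047, -0.015, 0.10 and -0.021 in the NeuNT/H1074R tumours, a narrower range that ran against complex I (r = -0.30).

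For complex III the means were 0.023, -0.045, 0.013 and 0.077 in the NeuNT tumours and -0.11, -0.070, 0.17 and -0.058 in the NeuNT/H1074R tumours, with NeuNT/H1074R replicate 3 highest. Cyc1 weighs most in this mean, with an SD of 0.37 against 0.078 to 0.15 for the other complex III genes. Complex IV read 0.21, -0.19, -0.14 and 0.13 in the NeuNT tumours and -0.057, -0.027, 0.069 and 0.0028 in the NeuNT/H1074R tumours. NeuNT replicates 1 and 4 were highest and NeuNT replicates 2 and 3 lowest, so the tumour that led complexes I and V was near the bottom for complex IV, and the correlation of complex IV with complex I was 0.081.

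Between genotypes the complex means differed by -0.040 for complex I, 0.034 for complex II, -0.034 for complex III, -0.0061 for complex IV and -0.061 for complex V. Each of these differences was smaller than the SD between the 4 tumours of either genotype. The sign depended on scaling. With arrays centred on their medians, the differences of complexes I, III and IV became 0.010, 0.017 and 0.044, while complex II stayed higher (0.085) and complex V lower (-0.011). Without NeuNT replicate 3 complex I differed by 0.027, without NeuNT replicate 1 complex IV differed by 0.064, and without the 2 tumours high in muscle genes complex II differed by -0.0011.

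Erbb2, the receptor gene of which both groups carry an activated form, read 10.28, 8.73, 9.89 and 9.10 in NeuNT replicates 1 to 4 and 8.89, 9.49, 9.33 and 9.36 in NeuNT/H1074R replicates 1 to 4. NeuNT covered the full range, from replicate 2 to replicate 1, and the 4 NeuNT/H1074R tumours fell between. The sources used here do not say how far this probe reads the transgene. Subunit genes were set against this value over both genotypes, as a slope per unit of log2 Erbb2 and as a correlation.

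Most subunit genes had a positive slope along Erbb2, but none passed the test. The slope was positive for 25 of 31 subunit genes (80.6%), against 51.0% of all tested genes. Marker genes of other cell types were read in the same way, and slopes were positive for 0 of 18 muscle genes and 11 of 13 adipocyte genes. The part of those cells was not tested. In limma's fit with Benjamini-Hochberg adjustment 0 of 31 subunit genes and 0 of 16634 genes (0%) passed 0.05, and the smallest adjusted p of a subunit gene was 0.610. At an unadjusted p under 0.05, limma counted 1 subunit gene with a positive slope and 0 with a negative one, beside 657 (3.95%) and 548 (3.29%) of all genes. The exact permutation test of Pearson's r over the 8 tumours gave 4 of 31 subunit genes at an unadjusted p under 0.05. It gave 1137 of 16634 genes in all, and 0 after adjustment over all genes. Positive slopes numbered 20 without NeuNT replicate 1 and 27 without NeuNT replicate 4, 25 within the NeuNT tumours and 20 within the NeuNT/H1074R tumours. They numbered 27 after quantile normalization and 26 with arrays centred.

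Sdhc had the smallest p of limma's fit. Its slope was 0.40 ± 0.14 (SE), with an adjusted p of 0.610 in limma. Over 8 tumours r was 0.82 (exact permutation p = 0.0135, 0.626 after adjustment over all genes) and rho 0.69 (exact permutation p = 0.0694, adjusted 0.599), and r was 0.86 without the 2 tumours farthest from the median Erbb2, NeuNT replicates 1 and 2. Its partner Sdhb went the other way, with r = -0.63 (exact permutation p = 0.0967, adjusted 0.774), rho = -0.71 (exact permutation p = 0.0576, adjusted 0.583), and r = -0.41 without those 2 tumours. Sdha and Sdhd gave r = -0.18 and 0.35, and Sdhd gave -0.37 without those 2 tumours. Complex II therefore had 2 positive and 2 negative slopes.

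In complex I, 11 of 12 slopes were positive, and Ndufa1, at r = -0.038, was the exception. Without NeuNT replicates 1 and 2 Ndufa1 gave 0.61, and Ndufa9 went from 0.37 to -0.50. Ndufb5, an accessory subunit of the membrane arm chosen after its values were seen, read 7.64, 7.31, 7.63 and 7.52 in the NeuNT tumours and 7.32, 7.45, 7.46 and 7.49 in the NeuNT/H1074R tumours. Its lowest tumours, NeuNT replicate 2 and NeuNT/H1074R replicate 1, were also the lowest in Erbb2, and its highest, NeuNT replicate 1, was the highest in Erbb2. Its r was 0.89 (exact permutation p = 0.00518, adjusted 0.572), rho 0.79 (exact permutation p = 0.0279, adjusted 0.542), and r 0.80 without NeuNT replicates 1 and 2. Ndufs3 gave r = 0.76 (exact permutation p = 0.0282, adjusted 0.714), rho 0.74 (exact permutation p = 0.0458, adjusted 0.564) and r 0.76 without those 2 tumours. Ndufb8, another membrane-arm subunit chosen after its values were seen, read 6.86, 6.48, 7.04 and 6.78 in the NeuNT tumours and 6.65, 6.76, 6.77 and 6.92 in the NeuNT/H1074R tumours. Its r was 0.76 (exact permutation p = 0.0318, adjusted 0.723), rho 0.74 (exact permutation p = 0.0458, adjusted 0.564), and r 0.85 without those 2 tumours.

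In complexes III to V no gene reached an unadjusted permutation p under 0.05 for Pearson's r, while Cox5b and Atp5c1 did for rho. How many of all genes did so for rho was not counted, so none of the unadjusted rho p-values given here is read as a result. After adjustment of the rho permutation test, 0 of 16634 genes passed 0.05. In complex IV Cox5b gave r = 0.66 (exact permutation p = 0.0708, adjusted 0.754) and rho 0.74 (exact permutation p = 0.0458, adjusted 0.564), and r was 0.83 without NeuNT replicates 1 and 2. The dimmer probe of Cox5b gave r = -0.40, and with the mean of both probes the slope of Cox5b was 0.032 in place of 0.18. In complex V Atp5c1 gave r = 0.66 (exact permutation p = 0.0724, adjusted 0.754) and rho 0.74 (exact permutation p = 0.0458, adjusted 0.564), and r was 0.64 without them. Cox4i1 and Cycs gave r = -0.011 and 0.0017, but Cox4i1 gave -0.72 without NeuNT replicates 1 and 2. The other probes of Cycs gave r from -0.034 to 0.32 over all 8 tumours. Uqcrfs1 was the complex III gene with the largest r, 0.36, but gave 0.0011 without NeuNT replicates 1 and 2. Uqcrc1 went from -0.048 to -0.66 without them. The sign of r turned for 8 of the 31 genes when NeuNT replicates 1 and 2 were left out. Beside Ndufa1, Ndufa9 and Sdhd these were Cycs (to -0.33), Cox5a (from 0.44 to -0.51), Cox7a2 (from 0.24 to -0.089), Ndufa4 (from 0.34 to -0.64) and Atp5d (from -0.30 to 0.73). The second probe of Atp5d gave r = 0.22 with Erbb2 over all 8 tumours, against -0.30 for the probe used.

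As complex means, correlations with Erbb2 were 0.63 for complex I, 0.012 for complex II, 0.22 for complex III, 0.48 for complex IV and 0.41 for complex V, and 0.65 for all 31 genes, each over 8 tumours and with no test. Spearman's rho was 0.64, -0.14, 0.17, 0.40 and 0.43 for the complexes in turn. Without NeuNT replicates 1 and 2, r was 0.85 for complex I and 0.55 for complex V, but -0.54 for complex IV. For complex IV, leaving out NeuNT replicate 1 alone gave 0.044 and leaving out NeuNT replicate 3 gave 0.78, so its value rested on single tumours. Complex II ran from -0.38 without NeuNT replicate 1 to 0.28 without NeuNT replicate 3, and complex III from 0.039 without NeuNT/H1074R replicate 1 to 0.39 without NeuNT/H1074R replicate 3. Without NeuNT replicate 1, complex I gave 0.88, and without NeuNT replicate 3 complex V gave 0.18. The difference between complexes in this correlation was not tested.

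**Figure D3:**
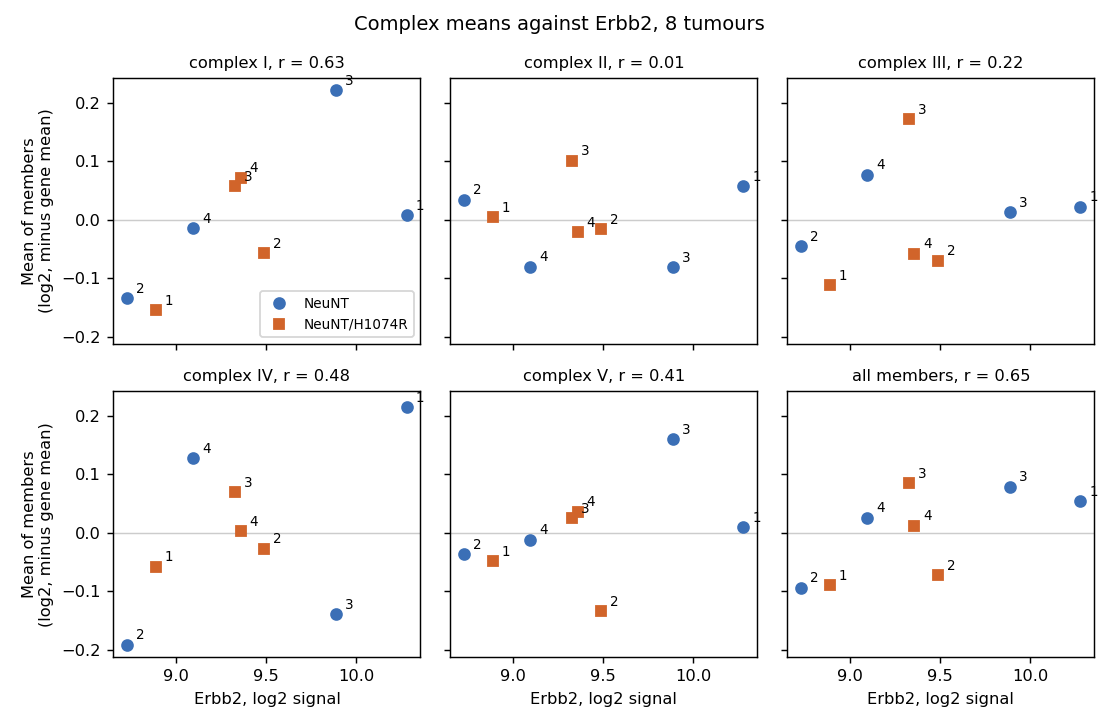
Mean over the genes of a complex of log2 signal minus the gene's own mean (y axis) against log2 Erbb2 (x axis), 1 point per tumour labelled with its replicate number, circles for NeuNT and squares for NeuNT/H1074R. Complex I is lowest in the tumours of lowest Erbb2 and highest in NeuNT replicate 3 (r = 0.63), complex II has r = 0.012, and in complex IV NeuNT replicate 1 is highest and NeuNT replicates 2 and 3 are lowest.

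Subunits of a complex are assembled in fixed proportions as proteins, and the likeness of their transcripts was also described. Over 465 pairs of subunit genes the median Pearson r across the 8 tumours was 0.14, beside 0.0005 over all pairs of tested genes. Pairs within a complex had a median of 0.28 over 98 pairs and pairs between complexes 0.079 over 367. An r of at least 0.7 was reached by 14.3% of pairs within a complex, 5.72% of pairs between complexes and 4.12% of all gene pairs. Of the 98 pairs within a complex, 66 were of complex I. The median within it was 0.38, while it was -0.20 in complex II, -0.037 in complex III, 0.13 in complex IV and 0.019 in complex V. With arrays centred on their medians the medians were 0.26 over all pairs, 0.42 within a complex and 0.23 between complexes, so pairs within a complex stayed above those between.

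Ndufb8 and Ndufs3 were the most alike pair (r = 0.97), followed by Ndufa10 and Ndufs1 (0.92), Ndufb5 and Ndufs3 (0.92) and, across complexes, Uqcrfs1 and Cox7a2 (0.92). Pairs that ran against each other included Ndufa1 and Cox4i1 (-0.82), Ndufa9 and Ndufs1 (-0.77) and Sdhb with Sdhc (-0.67). Among complex I genes, Ndufa1 and Ndufa9 had the lowest median r against the other subunit genes of all complexes. These medians were 0.12 and 0.052, against 0.35 for Ndufb5 and 0.32 for Ndufs3. Sdha was the gene least like the others, at -0.28.

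**Figure D4:**
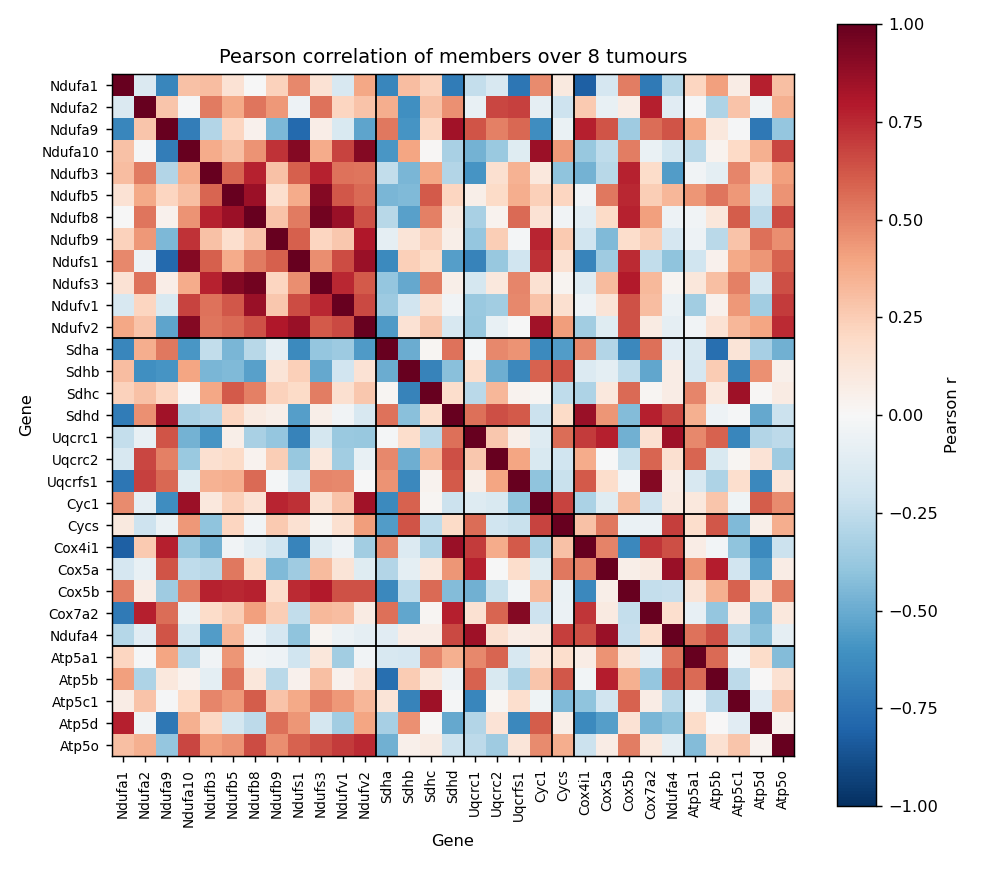
Pearson correlation over 8 tumours (colour scale from -1 to 1) for each pair of the 31 subunit genes, ordered by complex on both axes with lines between complexes. The block of complex I is mostly red, with most of its blue in the rows of Ndufa1 and Ndufa9, and the blocks of complexes II and III hold both colours.

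Promoter windows were read for the genes that moved most alike, to show whether shared letters of known regulators stand there. The RefSeq table (assembly GRCm38.p6) gave windows from 250 bases before to 50 after the start for 23 of the subunit genes, 25 windows in all. Searched on both strands were the NRF1 consensus, CCGGAAG for ETS factors, AAGATGG for YY1 and GGGCGG for SP factors. The ETS and YY1 motifs share the letters AAG and can overlap. The 4 windows printed are those of Ndufs3, Ndufb8 and Ndufb5, the complex I genes most alike and most correlated with Erbb2, and of Sdhb, which ran against Erbb2. Capitals mark ETS and YY1 matches and NRF1 matches with at most 1 mismatch, on either strand.
Ndufs3 (chr2:90904672-90904971, - strand): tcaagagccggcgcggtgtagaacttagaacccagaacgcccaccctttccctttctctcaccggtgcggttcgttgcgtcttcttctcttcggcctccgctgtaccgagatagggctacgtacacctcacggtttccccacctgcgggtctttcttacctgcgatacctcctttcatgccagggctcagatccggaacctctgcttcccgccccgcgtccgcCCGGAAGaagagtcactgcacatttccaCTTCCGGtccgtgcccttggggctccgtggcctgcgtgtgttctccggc
Ndufb8 (chr19:44555393-44555692, - strand): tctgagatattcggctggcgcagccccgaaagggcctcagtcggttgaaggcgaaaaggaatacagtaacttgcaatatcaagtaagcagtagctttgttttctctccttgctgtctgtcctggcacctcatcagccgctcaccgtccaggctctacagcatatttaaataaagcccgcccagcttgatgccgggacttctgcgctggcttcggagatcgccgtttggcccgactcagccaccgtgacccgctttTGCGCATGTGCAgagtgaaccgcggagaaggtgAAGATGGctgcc
Ndufb5 (chr3:32736813-32737112, + strand): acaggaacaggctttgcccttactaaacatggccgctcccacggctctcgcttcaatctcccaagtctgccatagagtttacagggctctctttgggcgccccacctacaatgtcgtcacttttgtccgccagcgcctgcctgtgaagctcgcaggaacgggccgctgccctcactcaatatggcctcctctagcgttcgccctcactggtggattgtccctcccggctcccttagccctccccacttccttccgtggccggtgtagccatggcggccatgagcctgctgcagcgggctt
Sdhb (chr4:140961021-140961320, + strand): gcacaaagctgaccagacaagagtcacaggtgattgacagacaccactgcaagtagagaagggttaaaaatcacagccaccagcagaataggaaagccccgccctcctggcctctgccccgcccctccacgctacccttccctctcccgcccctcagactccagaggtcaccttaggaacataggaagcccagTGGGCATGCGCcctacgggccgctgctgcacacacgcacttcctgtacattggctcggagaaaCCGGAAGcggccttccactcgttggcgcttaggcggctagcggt

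Ndufs3 and Ndufb8, whose transcripts were nearly parallel, thus share no capitalised motif. Ndufs3 has 2 ETS matches, and Ndufb8 has 1 YY1 match and a stretch within 1 mismatch of NRF1 on both strands. SP letters, not capitalised, are found at 2 places in the Ndufs3 window, 1 in that of Ndufb8, 0 in that of Ndufb5 and 3 in that of Sdhb. Ndufb5 has none of these motifs, which says only that the letters are not in this window. Sdhb has 1 ETS match and 1 stretch within 1 mismatch of NRF1. The exact NRF1 consensus stood in 12% of the subunit gene windows, against 1.97% of all 32851 promoter windows of the same length, and with at most 1 mismatch it stood in 40% against 8.28%. Exact matches were in Atp5c1, Sdhd and Uqcrc1. ETS letters stood in 12% against 8.86%, YY1 letters in 8% against 6.34% and SP letters in 44% against 35.7%. These shares describe letters and not binding. Sdhc is not in the promoter table used.

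Subunit genes were also set beside their neighbours on the chromosome, a comparison chosen after the data were seen. Each gene was correlated over the 8 tumours with the mean of the 20 tested genes on each side of it in RefSeq order. The median r of the 31 subunit genes was 0.47, against 0.22 for the 16482 other tested genes with a position. An r of at least 0.7 was found for 4 subunit genes (12.9%), beside 12.4% of other genes. With 10 or 40 neighbours a side the median of the subunit genes was 0.44 and 0.49.

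The 4 were Sdhb on chromosome 4 (r = 0.91), Ndufb9 and Cyc1 on chromosome 15 (0.77 and 0.75) and Ndufb8 on chromosome 19 (0.77). For Sdhb, the neighbours' mean was -0.17 in NeuNT replicate 1 and -0.16 in NeuNT/H1074R replicate 4, the tumours where Sdhb was lowest, and 0.17 in NeuNT replicate 4, where it was highest. Ndufb9, an accessory subunit of complex I, read 11.03, 11.16, 11.41 and 10.97 in the NeuNT tumours and 10.98, 10.96, 11.69 and 11.24 in the NeuNT/H1074R tumours. NeuNT/H1074R replicate 3 was highest for Ndufb9, as it was for Cyc1, and the neighbours of both genes were high there, by 0.20 and 0.23. Ndufb5 ran against its neighbours (r = -0.47). Copies of the chromosomes were not analysed here.

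**Figure D5:**
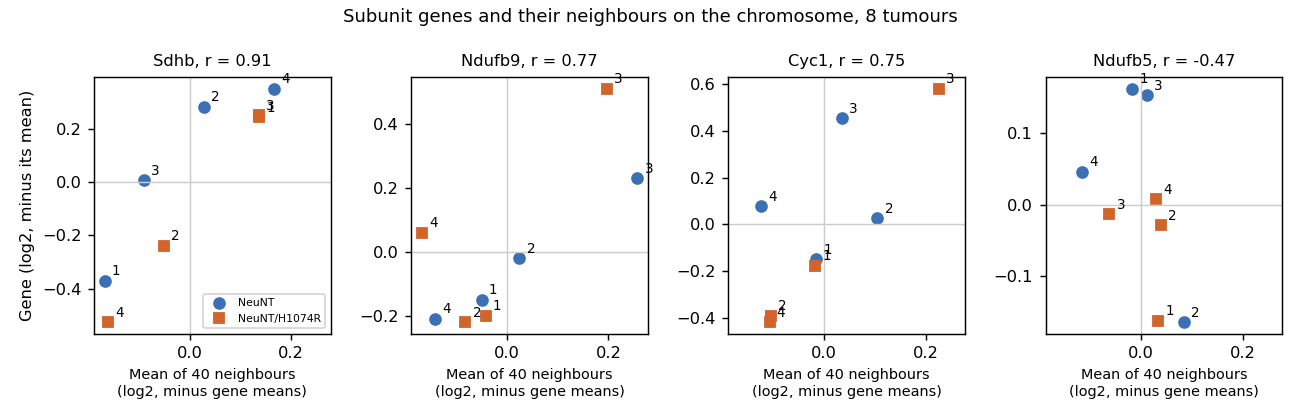
Log2 signal of a subunit gene minus its mean (y axis) against the mean of its 40 nearest tested genes, each minus its own mean (x axis), 1 point per tumour labelled with its replicate number, circles for NeuNT and squares for NeuNT/H1074R. Sdhb, Ndufb9 and Cyc1 run with their neighbours (r = 0.91, 0.77 and 0.75), and Ndufb5 does not (r = -0.47).

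The other genes of the pathway showed the same absence of calls. In limma's fits 0 genes passed after adjustment in any of the lists of further subunits, assembly factors, regulators, tricarboxylic acid cycle enzymes, carriers and mitochondrial ribosomal proteins, in either comparison. Slopes along Erbb2 were positive for 15 of 20 further complex I subunits, 2 of 4 of complex III, 6 of 6 of complex IV and 8 of 10 of complex V. They were positive for 28 of 39 assembly factors, 51 of 71 mitochondrial ribosomal protein genes, 11 of 15 cycle enzymes, 14 of 21 regulators, 7 of 8 carriers and pores and 7 of 10 subunits encoded in mitochondrial DNA. Of the 6 tissue-restricted isoforms 1 had a positive slope. The mitochondrial transcripts had a median SD of 0.076, but 9 of the 10 read between 12.46 and 13.41 and the highest value of the table was 13.6. The dimmer ND6, from 10.53 to 11.46, had an SD of 0.29.

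Along genotype, Cox6a1, the common form of a complex IV subunit, read 12.52, 12.64, 12.76 and 12.55 in the NeuNT tumours and 12.40, 12.30, 12.28 and 12.43 in the NeuNT/H1074R tumours. All NeuNT tumours lay above all NeuNT/H1074R tumours, with a difference of -0.27 ± 0.089 (SE) and an adjusted p of 0.978 in limma. Fh1, the fumarase of the tricarboxylic acid cycle, was also lower in NeuNT/H1074R without overlap, with a difference of -0.36 ± 0.13 (SE) and an adjusted p of 0.978 in limma. Over all pathway lists, the groups did not overlap for 5 genes higher and 4 lower in NeuNT/H1074R. Of all tested genes the shares were 1.59% and 1.1%. By list they were 1 higher and 2 lower of 20 further complex I subunits, 1 lower of 6 of complex IV and 1 lower of 15 cycle enzymes. Of 21 regulators 2 were higher, and of 71 mitochondrial ribosomal protein genes 2 were higher. The other lists held none. The higher ones were Ndufb7, an accessory subunit of complex I (0.21), the mitochondrial ribosomal proteins Mrpl40 (0.25) and Mrps24 (0.18), the nuclear receptor Esrra (0.12) and Yy1 (0.099). Beside Cox6a1 and Fh1, the lower ones were the complex I subunits Ndufa8 (-0.15) and Ndufab1 (-0.11). Of these, Ndufa8, Ndufab1, Mrps24, Esrra and Yy1 were named after their values were seen. Atp5l, a membrane subunit of the ATP synthase, was higher by 0.41 ± 0.16 (SE) with overlapping groups.

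Along Erbb2, regulators and cycle enzymes are given first. Ppargc1a, the coactivator PGC-1α of mitochondrial genes, read 7.62, 5.92, 7.90 and 5.82 in the NeuNT tumours and 5.93, 7.62, 6.97 and 7.39 in the NeuNT/H1074R tumours. Its tumours fell into high and low values in both genotypes, 7.39 to 7.90 in NeuNT replicates 1 and 3 and NeuNT/H1074R replicates 2 and 4, 6.97 in NeuNT/H1074R replicate 3 and 5.82 to 5.93 in the other 3. Its slope was 1.44 ± 0.33 (SE) with an adjusted p of 0.430 in limma, and r was 0.84 (exact permutation p = 0.00588, adjusted 0.572) and 0.91 without NeuNT replicates 1 and 2. Over the 8 tumours Ppargc1a correlated with the mean of complex I at 0.70 and with those of complexes II to V at -0.013, 0.058, 0.13 and 0.36, a comparison made after its values were seen and given without a test.

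Idh3a, the catalytic subunit of mitochondrial isocitrate dehydrogenase, read 8.87, 8.43, 8.71 and 8.57 in the NeuNT tumours and 8.37, 8.65, 8.59 and 8.47 in the NeuNT/H1074R tumours. It had r = 0.93 with Erbb2 (exact permutation p = 0.000967, adjusted 0.495), with a slope of 0.29 ± 0.10 (SE) and r = 0.84 without NeuNT replicates 1 and 2. Its partner Idh3g gave 0.90 (exact permutation p = 0.00308, adjusted 0.572), and 0.83 without those 2 tumours. Esrrg, an orphan nuclear receptor that works with PGC-1α, gave 0.75 (0.51 without NeuNT replicates 1 and 2), and the complex V subunit Atp5j and the assembly factor Ndufaf1 gave 0.85 and 0.83 (0.81 and 0.71 without them). Ecsit, an assembly factor of complex I, ran the other way at -0.82 (-0.38 without those 2 tumours), and so did Ndufa4l2, a paralog of Ndufa4 induced by hypoxia, which read 6.48, 8.42, 6.05 and 8.21 in the NeuNT tumours and 7.17, 5.86, 7.87 and 6.59 in the NeuNT/H1074R tumours. Its highest tumours were NeuNT replicates 2 and 4, and r was -0.70 (-0.66 without NeuNT replicates 1 and 2).

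Some subunits have muscle forms. Cox6a2, the heart and skeletal muscle form of Cox6a, was 6.02 and 6.28 in NeuNT/H1074R replicates 1 and 3 and between 4.84 and 5.48 in the other 6 tumours, and was named after its values were seen. Cox7a1, the tissue-restricted form of Cox7a, was 7.16 and 7.24 in NeuNT/H1074R replicates 1 and 3. It lay between 6.21 and 8.31 in the other 6, and was also named after its values were seen. Cox8b, a muscle and brown fat form, did not follow those tumours: it read 4.45, 4.64, 3.68 and 3.57 in the NeuNT tumours and 4.54, 5.09, 5.20 and 5.98 in the NeuNT/H1074R tumours, highest in NeuNT/H1074R replicate 4. NeuNT replicates 3 and 4 lay under the dim limit of 4.06, so the size of the difference, 1.11 ± 0.34 (SE) with an adjusted p of 0.978 in limma, is uncertain.

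Marker lists of other cell types were read beside the subunit genes. The mean of all 31 subunit genes correlated over the 8 tumours with the mean of the muscle list at -0.14, the luminal list at 0.013, the adipocyte list at -0.075, the macrophage and fibroblast lists at -0.48 each, the endothelial list at -0.46 and the lymphocyte list at -0.38. Besides the muscle and adipocyte genes given above, slopes along Erbb2 were positive for 1 of 10 lymphocyte, 1 of 10 endothelial, 3 of 11 macrophage, 5 of 11 fibroblast and 7 of 10 luminal genes. Between genotypes, 18 of 18 muscle genes were higher in NeuNT/H1074R, beside 49.5% of all tested genes. Higher there were also 1 of 13 adipocyte, 0 of 11 macrophage, 1 of 10 lymphocyte, 1 of 11 fibroblast, 3 of 10 endothelial and 5 of 10 luminal genes. The macrophage list, 11 genes, ranged from 8.19 to 8.76 in NeuNT and from 7.61 to 8.58 in NeuNT/H1074R, lowest in NeuNT/H1074R replicate 3, where most subunit genes were above their mean. It was highest in NeuNT replicate 3, where 18 of the 31 subunit genes were also above their mean. The fibroblast list, 11 genes, ranged from 7.94 to 9.15 and from 7.81 to 8.64, highest in NeuNT replicate 2, where most were below. Only 1 of 9 red blood cell genes was measured. The part of these cells in the subunit values was not tested.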

How the data were processed

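Total RNA of 8 tumours was hybridised to Affymetrix whole-transcript arrays, 1 per tumour. The authors deposited 1 table of log2 values for 41345 probes, ranging from 0.887 to 13.6. Per the submitters' processing notes, Affymetrix Expression Console and Transcriptome Analysis Console were used, and no source used here gives the normalization or the array build. Values were used as deposited. Probes were named from the platform annotation (23521 with 1 symbol, 1814 with several, which were not used). Genes with a mean under 4.06 (the lowest 25%) were left out. limma 3.58.1 in R 4.3.3 (lmFit, eBayes with intensity trend) tested genotype, and separately the Erbb2 value as the only covariate, with two-sided p-values adjusted by Benjamini-Hochberg over every tested gene, threshold 0.05. The fits were checked on simulated data. Correlations and exact permutation tests used Python 3.11.15, and array values give no read depth, so the number of arrays limits precision. Members and lists were chosen with earlier results of these data known. The motif letters were chosen after the data were seen. Genes described with every tumour's value were Erbb2, the gene of smallest unadjusted p for each complex in each fit, Ndufa4 and Cycs. Others were described that are said to be chosen after seeing their values. From each pathway list up to 2 genes of smallest p in each fit were picked. Only part of these are named, some without every tumour's value, and that part was not set by the rule. Alternatives were other scalings, filters, probe rules and variance models, and leaving out tumours.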

Additional observations from a re-analysis of the deposited data

Results flagged for a closer look

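In 76 groups of 4 tumours examined (each measured subunit gene, Erbb2 and the complex means, in each genotype), 2 held a tumour that stood far from the other 3, where chance flags about 1 group in 20. Both were in NeuNT/H1074R replicate 1. Uqcrc2, a core protein of complex III, was 9.25 there and 9.44 to 9.46 in the other 3 NeuNT/H1074R tumours, a gap of 0.902 of the group's range, above Dixon's critical value. Cox5a, a subunit of complex IV, was 9.14 there and 9.06 to 9.07 in the others, a gap of 0.835 of the range.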

How the results depend on the processing

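No subunit gene passed the adjusted threshold in either comparison under any alternative run. With 1 tumour left out in turn, the genes called along Erbb2 among all tested genes ranged from 0 to 1, the 1 being found where NeuNT replicate 1 or NeuNT/H1074R replicate 3 was absent. The correlation of complex IV with Erbb2 was -0.54 without the 2 tumours farthest from the median Erbb2. With genes scaled to unit SD the complex V difference was -0.70, in SD units. With centred arrays the median pair correlation was 0.26 over all pairs and 0.23 between complexes. Single genes were followed through these runs only for the smallest p of each complex in each fit, Ndufa4 and Cycs. Among these, slopes along Erbb2 changed sign for Ndufa1 (0.025) and Cycs (-0.018) with array weights. With genotype as a further term they changed sign for Sdha (0.0020) and Cycs (-0.052). Within NeuNT/H1074R they changed sign for Sdha (0.22), Atp5b (-0.022), Ndufa4 (-0.19) and Cycs (-0.55). Sign changes of the other subunit genes are not listed. The causes were not tested. With 1 tumour left out in turn, slopes ran from -0.18 to 0.20 for Ndufa1, -0.16 to 0.046 for Sdha, -0.012 to 0.17 for Uqcrfs1, -0.0385 to 0.19 for Cox7a2, -0.0012 to 0.048 for Atp5b, -0.21 to 0.34 for Ndufa4 and -0.15 to 0.076 for Cycs. Genotype differences ran from -0.058 to 0.096 for Atp5c1 and from -0.28 to 0.0030 for Ndufa4. No paired analysis was possible because the labels number the tumours differently in each genotype.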

Other observations

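Outside the pathway lists, the named genes whose values over the 8 tumours were most like the mean of the 31 subunit genes were Zscan4d (r = 0.94), Ciao3 (0.91), Car6 (0.91), Ribc2 (0.90) and Stard7 (0.90). They were picked for the highest r among the 16635 tested genes, so such values follow from the choice and carry no test. Zscan4d (4.12 to 4.72) and Ribc2 (4.43 to 4.61) lay close to the dim limit of 4.06. Ciao3 takes part in the assembly of cytosolic iron-sulfur proteins, and Stard7 carries phosphatidylcholine to mitochondria. Ciao3 was highest in NeuNT/H1074R replicate 3, at 7.07, and lowest in NeuNT replicate 2 and NeuNT/H1074R replicate 1. Car6, a secreted carbonic anhydrase, covered a far wider range and read 9.09, 5.09, 9.58 and 6.60 in the NeuNT tumours and 5.64, 6.59, 9.45 and 6.87 in the NeuNT/H1074R tumours. It was above 9 in NeuNT replicates 1 and 3 and NeuNT/H1074R replicate 3 and below 7 in the other 5 tumours.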
